A study of Mus musculus with 12 samples.

Results

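Some subcutaneous C26 tumours carried a strong skeletal muscle signal and others did not, and the genes outside the sarcomere that differed with it are described here. The tumours divided were the 8 of the PBS and Dox groups, of 12 in the series. An array was called muscle-containing where Acta1, which encodes skeletal muscle alpha-actin, had a signal above 10 on the log2 scale, and muscle-free where it was below 7. This gave 3 muscle-containing arrays (PBS replicates 3 and 4 and Dox replicate 2) and 5 muscle-free arrays (PBS replicates 1 and 2 and Dox replicates 1, 3 and 4). Because Acta1 divided the arrays, every difference between these 3 and 5 arrays is a description and was given no test.

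C26 is a mouse colon carcinoma line. It was grown under the skin of the dorsal flank of 6-week-old Balb/c mice. All mice carried the tumour and were treated on day 8 after inoculation, at about 50 mm3, with phosphate-buffered saline (PBS), free doxorubicin (Dox, an anthracycline that damages DNA through topoisomerase II) or CP-Dox (doxorubicin carried on a polypeptide); no dose is stated in the labels. Each group held 4 mice, and RNA of each tumour, taken 48 h later, went on its own expression array. Signals are given as log2 after RMA, and a difference of 1 is 2-fold; no detection call was used, so a low signal is not evidence that a gene was off, and the number of arrays limits the precision. Whole tumours were measured, so that more muscle cells and more RNA per muscle cell cannot be told apart. Array medians ran from 7.11 to 7.23, and arrays of a group correlated at 0.976 to 0.992 in PBS, 0.979 to 0.995 in Dox and 0.940 to 0.990 in CP-Dox. In the CP-Dox group, replicate 2 stood apart, and keratinocyte markers were high in CP-Dox replicates 1 and 3, where the list mean was 8.26 and 9.59, compared with 5.84 and 5.50 in the other CP-Dox arrays and 5.65 to 5.71 in the muscle-containing and 5.63 to 5.82 in the muscle-free arrays.

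A skeletal muscle fibre contracts when its membrane is excited by the motor nerve, calcium leaves the sarcoplasmic reticulum through the ryanodine receptor, and myosin pulls on actin; calcium is then pumped back and buffered. Adenosine triphosphate is restored from phosphocreatine, from glycogen and by mitochondria, and many of these steps use isoforms found mainly in muscle. Fast fibres lean on glycogen and glycolysis, and slow fibres on oxidation. The fibres form from satellite cells under the myogenic factors, which bind short DNA motifs called E-boxes, often next to sites for MEF2 factors.

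Promoters of 4 genes with large differences are shown first; they were picked for holding the E-box searched. The windows run from 250 bases before to 50 bases after a gene's start (RefSeq, GRCm38.p6). The E-box searched was CAGCTG, which reads the same on both strands, and the MEF2 consensus was searched on both strands; the motifs do not overlap in the windows printed. CAGCTG stood in 31.25% of 64 windows of the genes described as higher below (48 of 60 genes had a window), in 36.0% of 25 windows of sarcomere genes that were higher, and in 16.3% of all 32851 windows. The MEF2 consensus stood in 7.81%, 16.0% and 3.19%. Over the 12566 windows of all measured genes the shares were 15.99% for CAGCTG and 1.96% for the MEF2 consensus. Of the genes lower in muscle-containing tumours, 8 of 10 had windows (11 in all); 4 of the 11 windows, from 2 genes, held CAGCTG and 0 the MEF2 consensus. A match is a description of the letters and not a binding site. Shown are Ckm (chr7:19410844-19411143, plus strand), Atp2a1 (chr7:126463024-126463323, minus strand), Pygm (chr19:6384158-6384457, plus strand) and Pgam2 (chr11:5803747-5804046, minus strand), 5′ to 3′ on the gene's strand, with CAGCTG and, in Pgam2, also the MEF2 match in capitals. CAGCTG begins 249 bases before the start in Ckm, 55 in Atp2a1, 168 and 8 in Pygm and 125 in Pgam2, where the MEF2 match begins 80 bases before it.
Ckm: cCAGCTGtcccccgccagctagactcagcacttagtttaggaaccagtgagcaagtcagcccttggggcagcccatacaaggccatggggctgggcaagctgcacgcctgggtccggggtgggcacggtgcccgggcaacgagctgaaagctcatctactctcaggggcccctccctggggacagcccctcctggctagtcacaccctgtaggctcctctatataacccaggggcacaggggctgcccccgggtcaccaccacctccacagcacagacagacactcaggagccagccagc
Atp2a1: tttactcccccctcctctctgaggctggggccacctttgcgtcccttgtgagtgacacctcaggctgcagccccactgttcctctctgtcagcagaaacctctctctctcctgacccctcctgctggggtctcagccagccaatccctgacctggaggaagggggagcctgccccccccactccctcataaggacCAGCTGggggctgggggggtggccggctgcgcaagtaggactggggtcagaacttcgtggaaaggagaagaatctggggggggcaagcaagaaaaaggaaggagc
Pygm: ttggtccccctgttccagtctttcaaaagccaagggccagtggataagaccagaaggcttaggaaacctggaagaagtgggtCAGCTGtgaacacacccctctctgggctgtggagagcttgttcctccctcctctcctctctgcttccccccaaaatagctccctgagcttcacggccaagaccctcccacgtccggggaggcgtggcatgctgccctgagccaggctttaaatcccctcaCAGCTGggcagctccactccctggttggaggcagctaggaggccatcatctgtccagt
Pgam2: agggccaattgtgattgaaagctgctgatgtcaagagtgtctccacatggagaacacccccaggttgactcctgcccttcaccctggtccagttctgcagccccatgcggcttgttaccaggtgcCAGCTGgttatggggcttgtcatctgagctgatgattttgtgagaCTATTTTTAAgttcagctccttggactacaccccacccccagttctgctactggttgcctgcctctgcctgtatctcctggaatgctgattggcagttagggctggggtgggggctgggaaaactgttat

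Muscle markers other than Acta1 were also high in the tumours called muscle-containing. The split of Acta1 itself was set by the rule and is given only for its size. Acta1 was at 13.59, 11.91 and 11.85 in PBS replicates 3 and 4 and Dox replicate 2, and at 6.15 and 6.10 in the other PBS tumours and 5.99, 6.14 and 6.30 in Dox replicates 1, 3 and 4. None of the 8 arrays lay between 6.30 and 11.85, so that the limits of 10 and 7 fell in a wide gap. Actn3, which encodes the alpha-actinin of fast fibres, was at 11.20, 8.89 and 9.04 against 5.14 to 5.41, and the fast troponin gene Tnnt3 at 11.61, 9.46 and 9.24 against 4.29 to 4.40. PBS replicate 3 had the highest signal of each of these genes. Of 57 measured sarcomere genes, 30 were higher by at least 1 without overlap, and none was lower (median difference 1.04, all genes 0.00). All 10 measured fast-fibre sarcomere genes were among them (median 5.74), compared with 1 of 8 slow-fibre genes (median 0.11), Myoz2 at a difference of 1.12. Desmin, the intermediate filament of muscle, was also higher (Des, 8.06 to 10.03 against 6.19 to 6.37), though 1 of its 2 probe sets differed by 0.36. Of 10 genes of heart muscle none followed, with a highest difference of 0.34. Myosin heavy chain genes are close copies, and probes may not keep them apart.

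**Figure D1:**
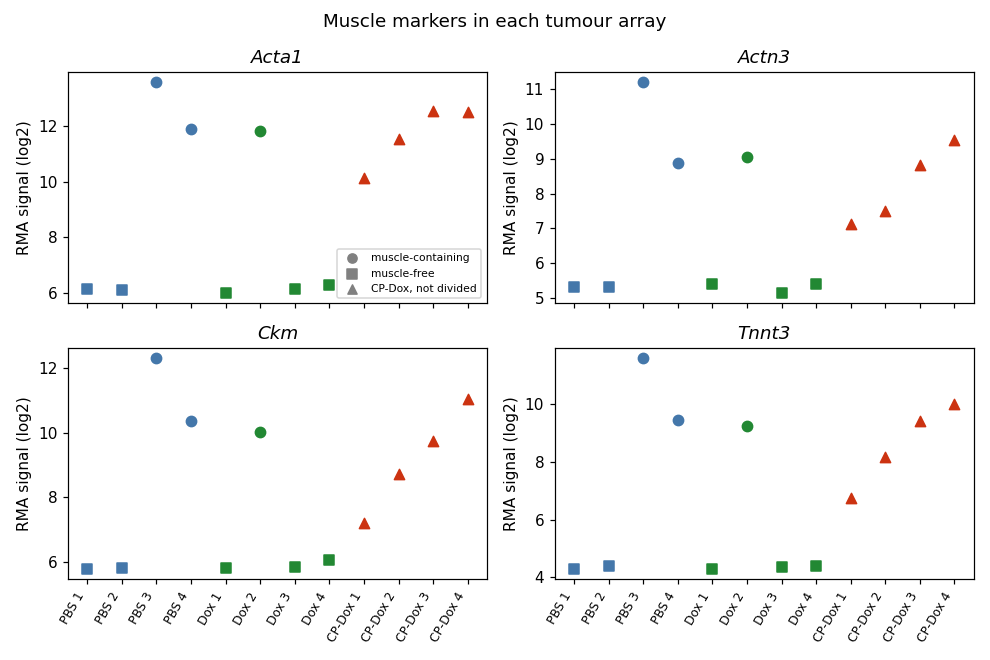
RMA signal (log2) of Acta1, Actn3, Ckm and Tnnt3 in each of the 12 arrays; colours mark the treatment, circles the 3 muscle-containing, squares the 5 muscle-free arrays and triangles the CP-Dox arrays, which were not divided. Acta1 lies at 11.85 to 13.59 in the circles and 5.99 to 6.30 in the squares, and the CP-Dox arrays range from 10.15 to 12.55.

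Outside the sarcomere list, 60 genes were higher by at least 1 in the muscle-containing arrays with no overlap, and 10 were lower, and these 70 are called genes following muscle. Over all 12393 genes, sarcomere included, 0.726% were higher and 0.0807% lower by this rule, and nothing is read from these shares since the arrays were divided by muscle itself. Of the 60, 19 differed by at least 2 and 3 by at least 4; of the 10, 1 differed by at least 2. The gene just inside the limit was Reep1 (1.004) and the gene just outside it Itgb1bp2, a muscle integrin-binding protein gene (0.999); on the lower side they were Usp18 (-1.07) and Pde1a (-0.96). Without PBS replicate 3 the rule gave 41 higher genes, of which 35 were among the 60. The count of lower genes rested more on single arrays, at 44 without Dox replicate 2 and 18 without PBS replicate 4 or PBS replicate 1. Of the 60 genes, 20 had more than 1 probe set, and in 9 of those only the probe set used passed the limit.

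Genes of the phosphocreatine system held the largest difference. Ckm, the creatine kinase of muscle cytosol, was at 12.31, 10.35 and 10.04 in PBS replicates 3 and 4 and Dox replicate 2. It was at 5.78 and 5.82 in the other PBS tumours and 5.79, 5.83 and 6.06 in Dox replicates 1, 3 and 4, a difference of 5.04. Ckmt2, the creatine kinase of muscle mitochondria, was at 8.27, 6.51 and 7.14 against 4.32 to 4.87 in the muscle-free tumours. Of 8 measured genes of phosphocreatine and adenine nucleotides these 2 followed. Ak1, an adenylate kinase gene that many tissues use, was at 9.11 to 9.20 and 8.47 to 9.08; the ranges did not overlap, but the difference of 0.32 missed the limit.

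Some glycogen and glycolysis genes followed. Pygm, the muscle glycogen phosphorylase, was at 9.90, 7.86 and 8.36 in PBS replicates 3 and 4 and Dox replicate 2, and at 5.40 and 5.44 in the other PBS tumours and 5.44, 5.45 and 5.74 in Dox replicates 1, 3 and 4. Pgam2, the muscle phosphoglycerate mutase, was at 10.42, 8.55 and 8.48, against 5.98 to 6.26. Ppp1r3c, which targets protein phosphatase 1 to glycogen, differed by 2.38, and the muscle enolase gene Eno3 by 1.69 (10.004 to 11.63 against 8.68 to 8.98). These were 4 of 20 measured members, whose median was 0.29. Gpd1, a glycerol phosphate dehydrogenase gene, and the phosphorylase kinase gene Phka1 differed by 0.83 and 0.76 and missed the limit, and Phka1 also overlapped.

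Apart from the sarcomere, calcium handling was the list with the most following genes, 11 of 24, with a median difference of 0.69. Atp2a1, the calcium pump of fast fibres, was at 12.01, 10.37 and 10.18 in PBS replicates 3 and 4 and Dox replicate 2, and at 5.82 and 5.97 in the other PBS tumours and 6.01, 5.87 and 6.23 in Dox replicates 1, 3 and 4. Pvalb, which encodes the fast-fibre calcium buffer parvalbumin, was at 11.10, 9.79 and 9.18 against 5.73 to 5.99. The muscle-containing tumours did not overlap with the others for either gene, and PBS replicate 3 was highest. Release-channel genes followed as well. Ryr1, the ryanodine receptor of skeletal muscle, was at 8.56, 6.64 and 6.99 against 4.71 to 4.88, and Casq1, which stores calcium in fast fibres, at 9.57, 8.11 and 7.80 against 5.67 to 6.04. Trdn (triadin, 1.92), the calcium channel gene Cacna1s (1.49) and Sln, which encodes the pump regulator sarcolipin (1.80), were also higher, with 4 of 6 probe sets of Trdn and 1 of 2 of Sln past 1. Cacna1s was at 4.93 in Dox replicate 2, close to the muscle-free maximum of 4.59. Atp2a2 and Pln, which slow and heart muscle use, did not follow: the pump gene Atp2a2 was at 11.28 to 12.33 and 11.71 to 12.06, and the phospholamban gene Pln at 5.42 to 5.58 and 5.19 to 5.43. Atp2a2 was thus as high in muscle-free tumours and Pln low in both groups, so that neither gene measures slow fibre content here.

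Oxidative genes followed in part. Pdk4, the kinase that shuts off pyruvate oxidation when fat is burned, was at 8.92, 6.72 and 7.76 in PBS replicates 3 and 4 and Dox replicate 2. In the muscle-free tumours it was at 4.66 and 4.18 in the other PBS tumours and 4.68, 4.85 and 4.70 in Dox replicates 1, 3 and 4. Myoglobin, the oxygen store of red muscle, was more even across the muscle-containing tumours, with Mb at 7.45, 7.12 and 6.93 against 5.08 to 5.56, although its other probe set differed by -0.05. The muscle and heart forms of cytochrome oxidase subunits, Cox8b (1.99), Cox6a2 (1.87) and Cox7a1 (1.34), and the fatty acid carrier gene Fabp3 (1.05) completed the 6 of 19 measured members. Respiratory chain subunits present in all cells did not follow, with 0 of 49 past the limit and a median of 0.07. Cox8b is also a brown fat gene. The other 5 measured brown fat genes did not follow, and their definer Ucp1 lay at 5.26 to 6.20 against 5.08 to 5.97. The part of brown fat in the Cox8b difference was not tested.

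Among 18 myogenic regulators and satellite cell genes, 2 followed. Myf6, the myogenic factor kept in mature fibres, was at 7.23, 5.41 and 6.35 in PBS replicates 3 and 4 and Dox replicate 2, against 4.40 to 4.81. Mef2c was at 8.27, 7.34 and 7.38 against 5.96 to 6.75, with 3 of its 5 probe sets past 1. Factors of forming muscle showed no such gap: Myod1 was at 5.45 to 5.68 and 5.12 to 5.51, Myog at 5.31 to 5.48 and 5.38 to 5.66, and the satellite cell gene Pax7 at 4.84 to 5.19 and 4.87 to 5.11. The ranges of all 3 overlapped.

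Other fibre genes did not follow. Of 10 neuromuscular junction genes, 0 passed the limit (median 0.07), and the acetylcholine receptor gene Chrna1 was at 8.08 to 9.52 in muscle-containing and 8.58 to 9.36 in muscle-free tumours, with its highest value, 11.32, in CP-Dox replicate 2. Of 14 genes of the dystrophin complex and fibre membrane, 0 passed (median 0.28), with Cav3, the caveolin of muscle, at 0.85 and the sarcoglycan gene Sgca at 0.70; neither overlapped. Muscle wasting genes, listed because C26 tumours are used to study cachexia, gave 0 of 19 with a median of -0.15. The atrophy ubiquitin ligase gene Fbxo32 was at 6.78 to 7.53 and 6.32 to 7.57. Gadd45a, a stress gene, was at 7.20 and 7.21 in PBS replicates 3 and 4 but at 6.01 in Dox replicate 2, within the muscle-free range of 5.84 to 6.27. Trim63 and Mstn were not analysed here, since no probe set names either alone.

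**Figure D2:**
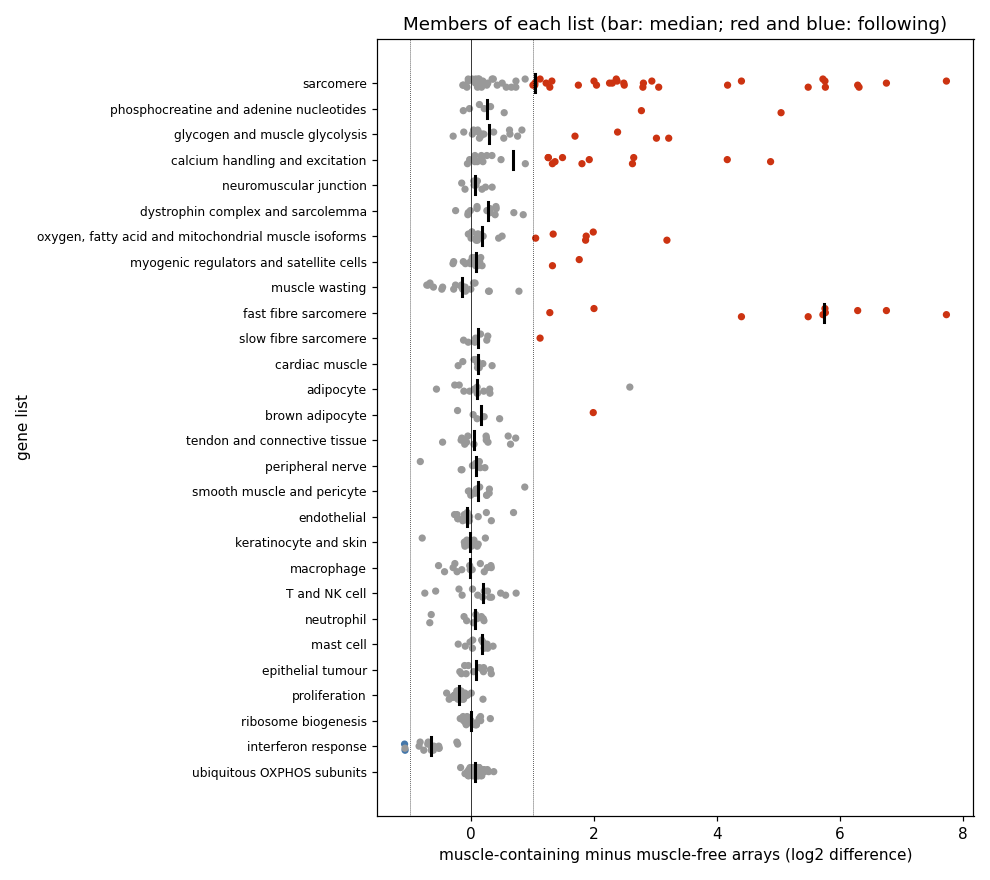
Difference between the means of the 3 muscle-containing and the 5 muscle-free arrays (log2) for each measured member of each list, with the list median as a bar, members higher by at least 1 without overlap in red and lower ones in blue. Fast-fibre genes reach from 1.28 to 7.73, calcium genes spread up to 4.87, and the lists of other cell types lie near 0.

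Beyond the fibre lists, 35 of the 60 higher genes were in none of the lists. Apobec2, a muscle member of the cytidine deaminase family, was at 8.83, 6.96 and 7.27 in PBS replicates 3 and 4 and Dox replicate 2, and at 4.20 to 4.54 in the muscle-free tumours. Fhl1, a LIM-domain protein gene, was at 10.04, 7.57 and 8.55 against 5.32 to 6.09, and Sh3bgr at 8.12, 6.15 and 5.999 against 3.999 to 4.32. Pde4dip, whose product myomegalin lies at the sarcomere and the centrosome, differed by 2.38, in 1 of 2 probe sets. Cryab, which encodes the chaperone alpha-B crystallin, was at 10.84, 8.62 and 9.47 against 5.92 to 8.58, so that PBS replicate 4 and Dox replicate 4 nearly met. Of its 3 probe sets 2 were past 1, and the lowest differed by -0.04. Bex1 rested mainly on PBS replicate 3, at 7.68, compared with 4.32 and 4.41 in the other muscle-containing and 3.36 to 3.75 in the muscle-free tumours.

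A few of these genes did not share the grading of the muscle markers, and they are named here after their values were seen. PBS replicate 3 was the highest of the 3 muscle-containing arrays for 56 of the 60 genes (23.7% over all genes), and the 4 exceptions were Prg4, Cpxm1, Gpx3 and Cd209a. Prg4, the joint lubricant lubricin, was at 7.29, 6.01 and 7.57 in PBS replicates 3 and 4 and Dox replicate 2, and at 4.22 and 4.42 in the other PBS tumours and 4.98, 5.06 and 5.49 in Dox replicates 1, 3 and 4. Cpxm1, a carboxypeptidase-like gene, was at 7.66, 7.38 and 7.84 against 4.76 to 7.33, and its muscle-free maximum, in Dox replicate 4, lay just below the muscle-containing minimum. Gpx3, a secreted glutathione peroxidase, was at 9.03, 9.10 and 8.55 against 6.77 to 8.18. Cd209a, a lectin of dendritic cells, was at 6.99, 7.82 and 6.73 against 5.66 to 6.15. In Cxcl14, a chemokine gene, and Cd24a, a cell surface glycoprotein gene, the muscle-free tumours also spread widely, from 5.72 to 6.95 and from 5.30 to 7.29, with Dox replicate 4 highest in both.

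Markers of other cell types did not separate the tumours as muscle did. None of the measured members followed among adipocyte (13), tendon and connective tissue (15), peripheral nerve (10), smooth muscle and pericyte (12), endothelial (16), keratinocyte (13), macrophage (14), T and NK cell (14), neutrophil (10), mast cell (11), epithelial (12), proliferation (27) and ribosome biogenesis (19) genes. Mean list signals in muscle-containing and muscle-free arrays were 6.11 to 6.38 and 5.72 to 6.66 for fat, 8.78 to 8.95 and 8.52 to 8.88 for connective tissue, and 7.07 to 7.49 and 7.23 to 7.48 for endothelium. Of 27 proliferation genes 25 had a negative difference (6096 of all 12393 genes), with a median of -0.20. Their list mean overlapped (9.67 to 10.22 against 9.98 to 10.37). Smooth muscle genes lay at 6.995 to 7.16 and 6.83 to 6.96, without overlap, although no member followed.

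The 10 lower genes held 3 granzyme genes and 2 genes of the interferon response list, with Ddx60 and Gbp2b, also known to respond to interferon. Gzmd, a granzyme of activated cytotoxic lymphocytes, was at 4.39, 3.57 and 3.80 in PBS replicates 3 and 4 and Dox replicate 2. It was at 7.97 and 6.29 in the other PBS tumours and 6.25, 5.07 and 6.23 in Dox replicates 1, 3 and 4, a difference of -2.44. Gzmc and Gzmf, its relatives, were at 5.35, 4.90 and 4.94 against 5.37 to 7.55 and at 5.47, 5.22 and 5.41 against 5.80 to 8.22. In all 3 genes Dox replicate 3 was the lowest muscle-free tumour and the gap to it was small for Gzmc. These granzyme genes are close copies, and probes may not keep them apart. Gzmb and the perforin gene Prf1, the main killing genes of the same cells, overlapped (8.71 to 9.86 and 9.17 to 11.21; 6.71 to 7.50 and 6.87 to 8.57), and so did the T and NK cell list mean (6.98 to 7.74 and 6.64 to 8.002). Their part in the granzyme result was not tested.

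Mx1, an antiviral GTPase gene, was at 5.79, 6.18 and 5.99 in PBS replicates 3 and 4 and Dox replicate 2, and at 6.75 and 7.21 in the other PBS tumours and 7.29, 6.87 and 7.22 in Dox replicates 1, 3 and 4. Usp18, which restrains interferon signalling, was at 9.13, 9.45 and 9.22 against 9.78 to 11.04. Ddx60 (-1.22), an antiviral helicase gene, the interferon-induced GTPase gene Gbp2b (-1.19) and Sectm1b (-1.22, and -0.42 in its other probe set) were lower too. Of 17 interferon response genes Mx1 and Usp18 followed and all 17 had a negative difference (median -0.65). Over all 12393 genes 6096 had a negative difference, and genes of a list are not independent. The list mean overlapped, at 9.10 to 9.55 in muscle-containing and 9.36 to 10.45 in muscle-free tumours, where PBS replicate 1, at 9.36, lay below PBS replicate 4. Outside these groups were Stra6, the vitamin A receptor gene (6.40 to 7.49 against 7.62 to 8.93), and Acpp, an acid phosphatase gene (6.26 to 6.99 against 7.49 to 8.10).

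The differences could be set side by side in PBS and in Dox tumours, which share no array. The median over the 60 higher genes was 2.06 for PBS replicates 3 and 4 against 1 and 2, and 1.14 for Dox replicate 2 against Dox replicates 1, 3 and 4; over the 10 lower genes it was -1.19 and -1.22. All genes had medians of 0.03 and -0.01. Both differences reached 1 for 33 of the 60 and 5 of the 10. Ckm differed by 5.53 in PBS and 4.14 in Dox, Ckmt2 by 2.73 and 2.69, and Prg4 by 2.33 and 2.40. Cacna1s and Fabp3 differed by 2.004 and 1.46 in PBS but by 0.44 and 0.36 in Dox. Among lower genes Gbp2b was at -0.68 and -1.86, and Stra6 at -1.99 and -0.33. The genes were chosen on all 8 arrays for a difference of at least 1, so that the common sign is fixed by the choice. It also favours the counts that reached 1, which are no check of 1 treatment group by the other. Over all 12393 genes the PBS and Dox differences correlated at r = 0.133, given as a description, since genes are not independent.

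**Figure D3:**
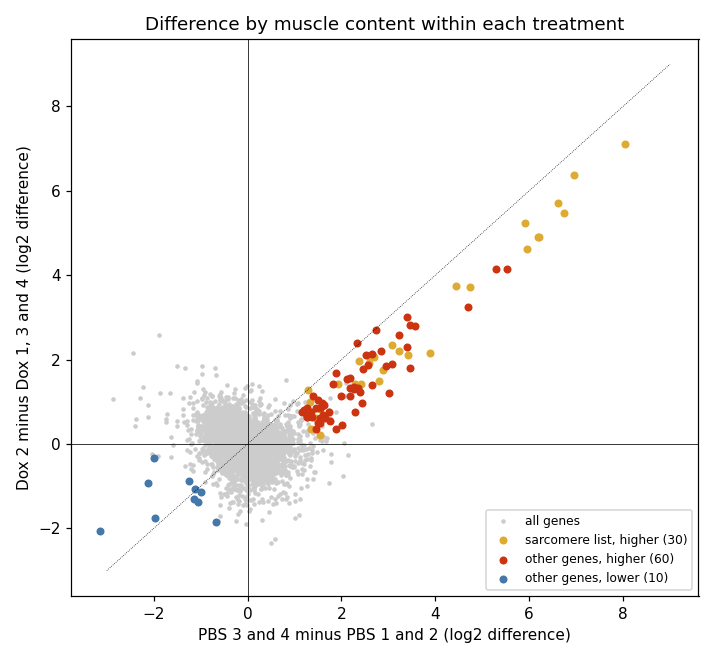
Difference between muscle-containing and muscle-free arrays (log2) within PBS (horizontal axis) and within Dox (vertical axis) for all 12393 genes in grey, with the 30 following sarcomere genes, the 60 other higher genes and the 10 lower genes in colour and the line of equal differences dotted. Most higher genes lie under the line, with medians of 2.06 in PBS and 1.14 in Dox.

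The 4 CP-Dox tumours did not choose the genes and show the same measure in other mice. Their Acta1 signals were 10.15, 11.54, 12.55 and 12.51 in replicates 1 to 4, all above the limit of 10. Of the 60 higher genes, 43 were higher in both replicates 3 and 4, which had more Acta1, than in both replicates 1 and 2, and 0 were lower in both; over all genes the shares were 19.2% and 21.2%. The median difference of the 60 was 0.76, against -0.01 over all genes, and 58 of 60 were above 0. Ckm was at 7.20, 8.72, 9.74 and 11.03 in replicates 1 to 4, Atp2a1 at 7.43, 8.73, 9.42 and 10.61, and Pygm at 5.68, 6.55, 7.42 and 8.57. Replicate 1 was lowest in these 3 genes and in 48 of the 60 (21.5% over all genes). Among the 17 that did not keep the order were Eno3 (7.93, 9.63, 8.94 and 9.45), Mef2c (5.55, 6.85, 6.57 and 6.51) and Fhl1 (7.88, 9.50, 10.05 and 8.29). Keratinocyte genes were high in replicates 1 and 3, on both sides of this order, and replicate 2 stood apart from its group; their part in these orders was not tested. The lowest CP-Dox tumour was above the highest muscle-free tumour for 21 of the 60 genes (2.96% over all genes).

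The lower genes did not keep the order in CP-Dox tumours. None of the 10 was lower in replicates 3 and 4 than in 1 and 2 except Stra6 (7.17, 9.04, 6.96 and 6.79 in replicates 1 to 4), and the median difference was 1.22, with 8 of 10 above 0. Mx1 was at 9.53, 5.09, 8.95 and 8.47, Gzmd at 6.34, 3.49, 7.004 and 4.87 and Gzmc at 8.34, 4.41, 8.90 and 7.07. Replicate 2 was the lowest CP-Dox tumour for 9 of the 10 (29.9% over all genes) and lay below every muscle-free tumour for 9 (24.7%). In replicates 1, 3 and 4 together, 4 of the 10 were above every muscle-free tumour (10.5%), although Acta1 was at 10.15 to 12.55 there.

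**Figure D4:**
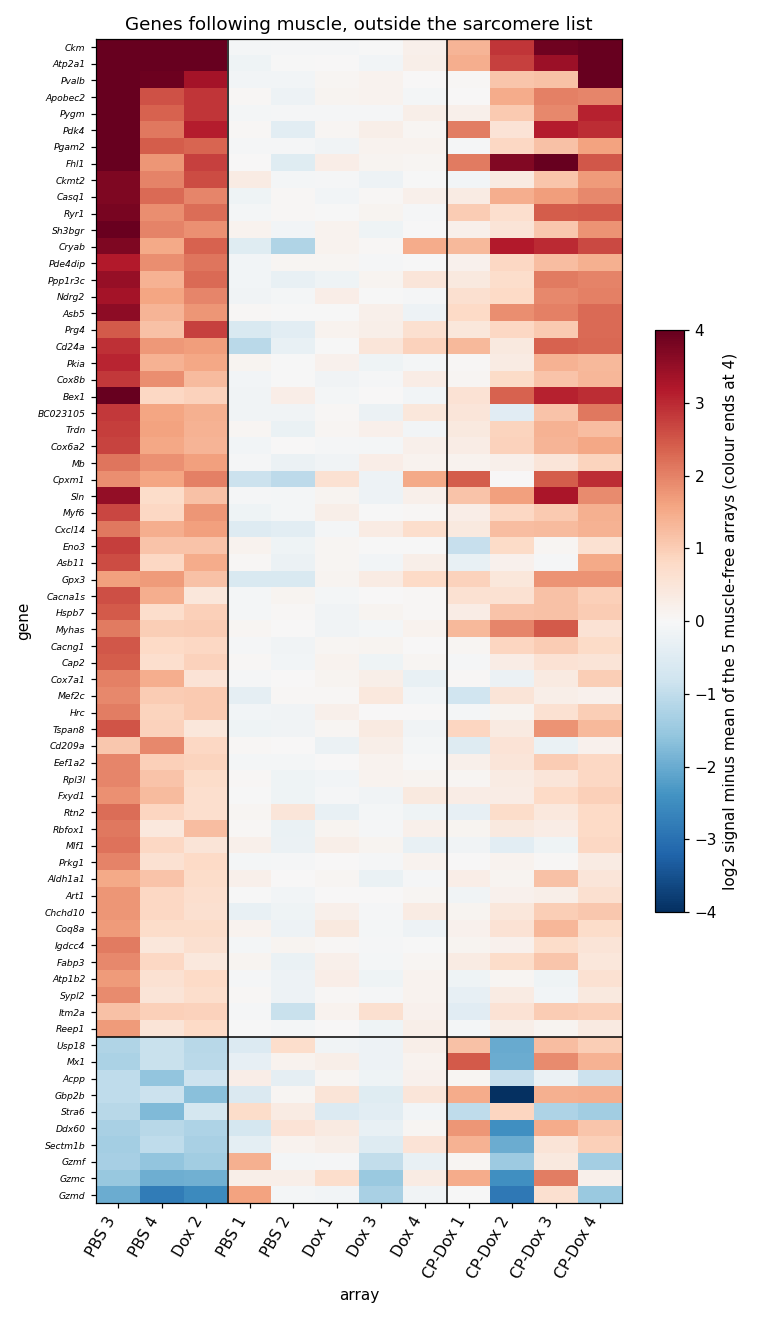
Signal of the 60 higher and 10 lower genes (rows, ordered by difference) in the 3 muscle-containing, 5 muscle-free and 4 CP-Dox arrays (columns, divided by lines), as log2 signal minus the mean of the 5 muscle-free arrays, with colour ending at 4. PBS 3 is the darkest column for most higher genes, and among the lower genes CP-Dox 2 has the lowest signal of Gbp2b (8.12) while Mx1 is high in CP-Dox 1 (9.53).

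The treatments themselves were compared by limma over all 12 arrays, with groups taken from the labels. The 70 genes had been chosen for a split within the PBS and Dox groups on these same arrays, which widens their error (median standard error 0.58 for the 60, 0.13 over all genes), so that a lack of calls says little about the treatments. In Dox against PBS, 0 of the 60 higher and 0 of the 10 lower genes passed an adjusted p of 0.05 (0% of all genes; 0 of 60 and 0 of 10 also at an unadjusted p under 0.05, and 558 of all 12393 genes). The median log2 fold changes were -0.57 and 0.24, and 55 of the 60 were below 0; with 2 PBS tumours and 1 Dox tumour muscle-containing, the choice of genes sets this sign, and it is no treatment result. Ckm differed by -1.63 ± 1.52 (SE, 4 tumours per group). In CP-Dox against PBS, which uses the same PBS tumours, none of the 70 passed, where 5.58% of all genes were called (2.35% up, 3.23% down). At an unadjusted limma p under 0.05 there were 0 of the 70 and 2914 of all 12393 genes. The medians were -0.13 and 0.76. In CP-Dox against Dox none of the 70 passed, where 0.226% of all genes were called (0.0565% up, 0.169% down). At an unadjusted limma p under 0.05 there were 4 of the 60 higher genes, 0 of the 10 lower genes and 1991 of all 12393 genes. The medians were 0.41 and 0.43. Without CP-Dox replicate 2, which lay apart from its group so that its removal favours calls, Mx1 (2.50 ± 0.39), Ddx60, Gbp2b, Usp18 and Sectm1b rose against PBS (limma adjusted p from 0.00254 to 0.0304), 5 of the 70 where 19.1% of all genes were called. Mx1, Ddx60 and Gbp2b then also rose against Dox (adjusted p from 0.0132 to 0.0403), 3 of the 70 where 9.28% of all genes were called. Neither share of the 70 exceeded that of all genes, but every gene called was among the 10 lower genes and none among the 60 higher ones. Of the 10 lower genes alone the calls were thus 5 and 3. CP-Dox replicate 2 was the lowest CP-Dox tumour for 9 of these 10, so that its removal favours these calls in particular.

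Pgam2, Ckmt2 and Eno3 had lower values in CP-Dox than in PBS tumours when the mean of the 57 sarcomere genes was a covariate in limma. The covariate holds Acta1, and the genes were chosen for their tie to muscle in the PBS and Dox arrays, so that these differences are a description and are given without p-values. The higher genes were chosen for high values in PBS replicates 3 and 4 and Dox replicate 2, with no CP-Dox array used. That choice by itself favours lower CP-Dox values at a given sarcomere mean, so the differences are no treatment result. CP-Dox minus PBS was -1.29 ± 0.18 (SE) for Pgam2, -1.21 ± 0.24 for Ckmt2 and -1.16 ± 0.26 for Eno3. It was -1.05 ± 0.24 for Sh3bgr, -0.93 ± 0.15 for Apobec2 and -0.87 ± 0.20 for Mef2c, and 1.18 ± 0.27 for Fhl1. The genes named above are drawn from those that this limma fit counted at an adjusted p of 0.05. Since all 70 were chosen by muscle on the PBS and Dox arrays, the counts are no test of them against all genes. The fit counted 12 of the 70 at this limit, 11 lower and 1 higher, where 4.95% of all genes were counted (2.12% up, 2.83% down). It counted 1 in CP-Dox against Dox (Apobec2, -1.01 ± 0.16; 0.161% of all genes, 0.0807% each way) and 0 in Dox against PBS (0% of all genes). The model takes a straight line with the same slope in all groups. The count against PBS moved with each tumour left out, as did that of all genes. Dropping CP-Dox replicates 1, 2, 3 and 4 gave 2, 29, 3 and 20 of the 70, where 1.21%, 19.3%, 1.82% and 3.40% of all genes were counted. Dropping PBS replicates 1, 2, 3 and 4 gave 4, 5, 0 and 8, where 2.61%, 3.64%, 0% and 3.26% were, so that without PBS replicate 3 the fit counted no gene at all. The signs of the 12 differences were the same each time. The full fit picked these 12 and shares most arrays with each of the others, so the common sign adds no support.

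Tumours of like sarcomere mean give the same genes' values without a model. PBS replicate 4 and Dox replicate 2 helped to choose the genes by their high values, which favours lower CP-Dox values here too. Pgam2, Ckmt2 and Eno3 were named from the fit above, so their values are no separate check of it. CP-Dox replicates 3 and 4 had sarcomere means of 7.39 and 7.04, compared with 7.01 and 7.14 in PBS replicate 4 and Dox replicate 2. Pgam2 was at 7.31 and 7.75 in the first pair and 8.55 and 8.48 in the second. Ckmt2 was at 5.66 and 6.24 against 6.51 and 7.14, and Eno3 at 8.94 and 9.45 against 10.004 and 10.01. Fhl1, higher in the fit above, was at 10.05 and 8.29 against 7.57 and 8.55, so that only CP-Dox replicate 3 lay above both others. Pvalb differed within the first pair, at 7.04 in CP-Dox replicate 3 and 9.86 in replicate 4, against 9.79 and 9.18. Over the 60 genes, 18 were lower and 12 higher in both CP-Dox tumours than in both others, where 27.9% and 20% of all genes were, so that the genes as a whole lay near the background. The median was -0.12 over the 60 and 0.39 over the 30 following sarcomere genes, against -0.05 over all genes.

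**Figure D5:**
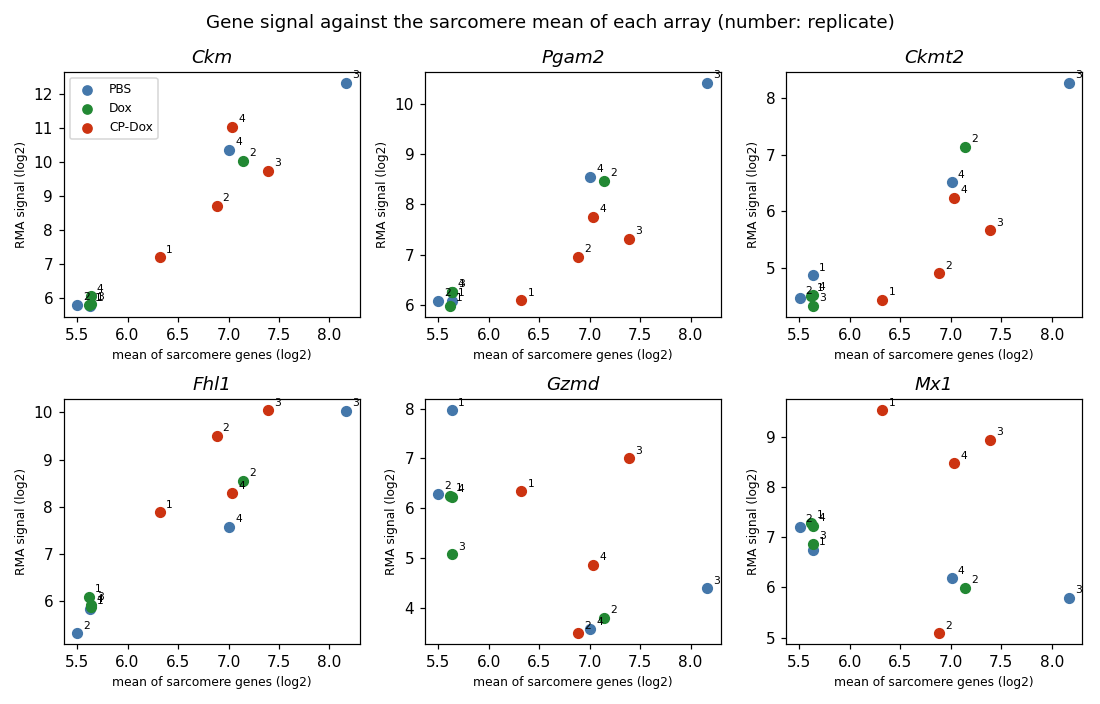
RMA signal (log2) of Ckm, Pgam2, Ckmt2, Fhl1, Gzmd and Mx1 against the mean of the 57 measured sarcomere genes (log2) in each of the 12 arrays, coloured by treatment and numbered by replicate. Pgam2 and Ckmt2 lie lower in CP-Dox 3 (7.31 and 5.66) than in PBS 4 and Dox 2. Fhl1 lies higher in CP-Dox 3 (10.05), but in CP-Dox 4 (8.29) it lies between PBS 4 (7.57) and Dox 2 (8.55). Gzmd and Mx1 are low in the muscle-containing PBS and Dox arrays but not in CP-Dox 1 and 3.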

How the data were processed

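Total RNA from 12 tumours, 1 array each, was labelled by the array maker's standard protocol, per the labels. The authors deposited log2 values, and RMA and Partek are named per the submitters' processing notes; the sources used here give no version. RMA includes background correction, quantile normalization and summarizing of probes. The values were used without further normalization.

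Of 22690 probe sets, 64 controls, 691 with several symbols and 1555 with none were left out. The other 20380 stood for 12393 genes, and each of the 4956 genes with several was read from its brightest probe set on average. Gene identifiers of 20351 were matched to the GRCm38.p6 gene table, and 0 symbols changed. Replicate numbers come from the titles and name mice.

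Arrays were divided by Acta1 as described, and a gene followed muscle where the group means differed by at least 1 (log2) and the groups did not overlap. Treatments were tested in R 4.3.3 by the lmFit and eBayes steps of limma 3.58.1, with 1 mean per group over 12 arrays, two-sided, and p-values adjusted by Benjamini and Hochberg over 12393 genes; rose and fell mean an adjusted p under 0.05. The fit was checked on simulated data. Of 520 listed symbols, 451 were measured. The members and gene lists were chosen with earlier results of these data known. Named genes are the 14 largest higher and 10 largest lower differences, up to 4 members per list, a set of always reported muscle genes and the genes nearest the limit; Atp2a2, Bex1, Cacna1s, Cox7a1, Cxcl14, Cd24a, Fabp3, Gpd1, Phka1, Pln and Trdn, and those said so in the text, were chosen after their values were seen. Same-numbered tumours of different groups deviated together in part, not throughout (correlations from -0.31 to 0.505, the own number closest in 12 of 24 cases). The main fit used no pairing, and a fit with the replicate number as a block is given below. Alternatives were other normalizations, filters, probe set rules, limits, variance models, a covariate, a replicate block and leaving out arrays. Python 3.11.15 and matplotlib 3.10.9 made the figures.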

Additional observations from a re-analysis of the deposited data

Results flagged for a closer look

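Single tumours lay far from the others of their treatment group for 29 of the 207 gene and group pairs examined (69 named genes in 3 groups of 4 tumours). Chance alone marks about 1 in 20 such groups, and genes of the same tissue are not independent. The measure is the gap between the extreme tumour and its nearest neighbour as a share of the group's range, and shares above the critical value of Dixon's test were marked. Dox replicate 2, the only muscle-containing Dox tumour, was the highest of its group for 21 genes. Acta1 divided the arrays and nearly all of the others are muscle genes chosen or listed for their tie to it, so that the choice of genes set these marks and the chance rate says nothing of them. Its shares were 0.95 for Acta1, 0.93 for Actn3, 0.94 for Ckm, 0.98 for Tnnt3, 0.92 for Des, 0.93 for Ckmt2 and 0.90 for Pygm. They were 0.89 for Pgam2, 0.90 for Eno3, 0.92 for Atp2a1, 0.96 for Pvalb, 0.86 for Casq1, 0.93 for Ryr1 and 0.94 for Pdk4, and 0.85 for Myf6, 0.93 for Apobec2, 0.92 for Fhl1, 0.84 for Sh3bgr, 0.95 for Pde4dip, 0.87 for Bex1 and 0.93 for Itgb1bp2.

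In the CP-Dox group, replicate 2 was far below the others for interferon and killing genes, with shares of 0.84 for Ddx60, 0.99 for Gbp2b, 0.92 for Usp18, 0.94 for Gzmb and 0.86 for Prf1. It was far above them for Stra6 (0.83). Replicate 4 was highest for Pln (0.99), at 5.72 against at most 5.30 in the others. Replicate 1 was lowest for Cxcl14 (0.84), at 6.63, against 7.49 to 7.65.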

How the results depend on the processing

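The 60 higher and 10 lower genes became 59 and 11 after another quantile normalization, 64 and 9 after median centring, 56 and 10 with the mean of a gene's probe sets, and 66 and 11 with its most variable probe set, with 58, 60, 53 and 60 of the 60 higher genes shared. The counts moved further without the dimmest 40% of genes (20 and 6), with a limit of 2 (19 and 1) or 0.5 (104 and 49), and with a limit of 1 within PBS and within Dox (33 and 5). Leaving out 1 array gave 41 to 86 higher and 9 to 44 lower genes. The treatment tests called 0 of the 70 in each comparison as planned, also with the replicate number as a block (replicate block: 0, 0 and 0; of all genes 0, 995 and 8 were called), with same-numbered tumours closest in 12 of 24 cases. Against PBS the CP-Dox count was 12 with the sarcomere covariate and 12 with a fast-fibre covariate, which was added after the data were seen; against Dox it was 1 and 5. Leaving out 1 array gave 0 to 5 and 0 to 3 calls, the highest without CP-Dox replicate 2, where 2363 and 1150 of all 12393 genes were called, and leaving them out with the covariate, also a later addition, gave 0 to 29 (2, 29, 3, 20, 4, 5, 0 and 8) and 0 to 13 (13 and 7 without CP-Dox replicates 2 and 4, otherwise 0); without CP-Dox replicate 2 this fit called 2386 and 1078 of all genes, and without PBS replicate 3 none against PBS. The other settings, and every setting in Dox against PBS, gave 0. No detection values were used, so low signals carry no bound.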

Other observations

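Some genes differed by at least 1 on average but overlapped between the tumours, 13 higher and 9 lower. Car3, a carbonic anhydrase of muscle and fat, was at 8.95, 9.21 and 8.59 in PBS replicates 3 and 4 and Dox replicate 2. It was at 5.29 to 9.65 in the muscle-free tumours, where Dox replicate 4 was highest, and that tumour also had the highest adipocyte list mean of the 8 (6.66 against 5.72 to 6.38 in the others). Car3 is itself on that list, and without it the mean of the other 12 genes was 6.42 against 5.74 to 6.15. Lyve1, a receptor of lymphatic vessels and tissue macrophages, was at 6.59, 7.27 and 7.28 against 5.09 to 6.66, and at 4.81, 4.17, 4.99 and 4.91 in CP-Dox replicates 1 to 4. Nr4a2, an immediate early nuclear receptor gene, was low in PBS replicates 3 and 4 (7.70 and 6.73) but not in Dox replicate 2 (10.61), against 8.51 to 10.71 in the muscle-free tumours. Lyve1 and Nr4a2 were chosen after their values were seen.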
